A study of Mus musculus with 72 samples.

Results

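The anterior pituitary hormone genes were followed in RNA sequencing counts from male mice whose mothers had been fed freely or underfed. The set held 6 of the 55416 genes counted in the study, chosen by matching their symbols to the Ensembl identifiers of the count rows: Gh, Prl, Pomc, Tshb, Fshb and Cga. The mice were of a sighted FVB strain, FVB.129P2-Pde6b+ Tyrc-ch/AntJ by the methods, in which the retinal degeneration allele of FVB is replaced. Dams were fed ad libitum (FED) or given 20% fewer calories (CR20) from late gestation through lactation, and male offspring received a 10% fat diet (CTRL) or a 45% fat diet (HFD) from 8 weeks of age. The methods give 10 weeks on the diet for the sequenced males, whereas the sample labels also allow a longer course. Each of the 4 groups, FED-CTRL, FED-HFD, CR20-CTRL and CR20-HFD, held 6 mice, and pituitary, epididymal white adipose tissue (eWAT) and liver of the same 24 mice were sequenced. The labels do not say which mice were littermates, so p-values measure the spread between mice, some of which may share a dam. The question was whether maternal underfeeding and later diet altered the transcripts behind the circulating pituitary hormones.

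Endocrine cells of the anterior pituitary each make a main hormone: somatotropes growth hormone, lactotropes prolactin, corticotropes adrenocorticotropin, thyrotropes thyrotropin and gonadotropes the gonadotropins. Thyrotropin and both gonadotropins share an alpha subunit and differ in their beta subunits, which give each hormone its receptor specificity. Releasing and inhibiting factors from the hypothalamus, and feedback from the target glands, set the output of each cell type.

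Gh (ENSMUSG00000020713), which encodes growth hormone, lies on the minus strand at chr11:106191095-106192691 of GRCm39. Prl (ENSMUSG00000021342), the prolactin gene, lies on the plus strand at chr13:27241553-27249188. Pomc (ENSMUSG00000020660), the precursor of adrenocorticotropin in corticotropes and of melanocyte-stimulating hormone in the melanotropes of the intermediate lobe, lies on the plus strand at chr12:4004944-4010642. Cga (ENSMUSG00000028298), the shared alpha subunit, lies on the plus strand at chr4:34893779-34907371. Tshb (ENSMUSG00000027857), the thyrotropin beta subunit, lies on the minus strand at chr3:102682781-102690034. Fshb (ENSMUSG00000027120), the beta subunit of follicle-stimulating hormone, lies on the minus strand at chr2:106886485-106890001. All 6 are annotated as protein-coding. An opposite-strand gene overlaps 3 of them, and its exons share 306 bases with those of Cga (Platr9, at most 80 counts in a pituitary library) and 0 bases with those of Tshb (Tspan2, at most 1407) and of Prl (Gm47888, at most 12). Reads within the exon bases shared by Cga and Platr9 can be told apart only if counting used the strand, which is not stated. The same holds for any unspliced reads of Tspan2 or Gm47888 that fall in exons of Tshb or Prl.

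The 200 bases upstream of the annotated start are shown for Gh, Prl and Tshb, because the cells that make these hormones share the POU-domain factor POU1F1, which binds A/T-rich sites. Capitals mark each match to ATGNATA or its reverse complement TATNCAT, a form of such a site, read from GRCm39 in the direction of transcription. The stretches are chr11:106192692-106192891 on the minus strand for Gh, chr13:27241353-27241552 on the plus strand for Prl and chr3:102690035-102690234 on the minus strand for Tshb.
Gh: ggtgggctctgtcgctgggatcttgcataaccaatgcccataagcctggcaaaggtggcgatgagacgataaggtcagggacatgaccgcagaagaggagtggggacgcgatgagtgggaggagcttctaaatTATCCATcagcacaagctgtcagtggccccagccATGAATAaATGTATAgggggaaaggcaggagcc
Prl: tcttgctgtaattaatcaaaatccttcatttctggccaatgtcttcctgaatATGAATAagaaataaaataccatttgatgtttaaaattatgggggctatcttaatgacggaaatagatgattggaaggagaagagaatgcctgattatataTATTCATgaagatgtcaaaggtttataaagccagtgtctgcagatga
Tshb: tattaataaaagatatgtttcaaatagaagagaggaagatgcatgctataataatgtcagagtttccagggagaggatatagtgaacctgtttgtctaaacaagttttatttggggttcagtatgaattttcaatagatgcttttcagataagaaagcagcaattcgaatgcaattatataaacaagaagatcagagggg
Gh held 3 matches, 2 of them just before the start, Prl held 2, and these letters did not occur in the window of Tshb, Pomc, Fshb or Cga. Among the 21770 promoters of protein-coding genes of this length, 5.36% held a match on either strand. TATAAA, a core TATA box, was present in 5 of the 6 hormone promoters, all but Gh, and in 9.57% of all promoters. AAGGTCA, a site of the gonadotrope factor NR5A1 and related receptors, was present in Gh and Pomc and in 3.03% of all promoters, and TCACACC, a T-box core of the corticotrope factor TBX19, was in 0 of the 6 and in 2.58%. A match is a stretch of letters, not evidence of binding.

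Hormone transcripts made up a large part of each pituitary library. Total counts per pituitary library ran from 18299494 to 27601208, and the 6 genes together took from 25.0% of them in FED-CTRL mouse 15 to 36.6% in FED-HFD mouse 13, with a median of 31.0%. Gh was the most abundant gene of the tissue, at 20.7% to 32.9% of a library (median 27.1%, n = 24 mice). Pomc ranked 2 among all genes at 1.90% to 3.93% (median 2.53%), and Prl ranked 3 at 0.688% to 1.63% (median 1.03%). Cga ranked 12 with a median of 0.248% of the library, Fshb ranked 97 with 0.0657%, and Tshb ranked 572 with 0.0179%. The lowest Tshb count was 2577, so counting error was small beside the spread between mice for every hormone gene.

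**Figure D1:**
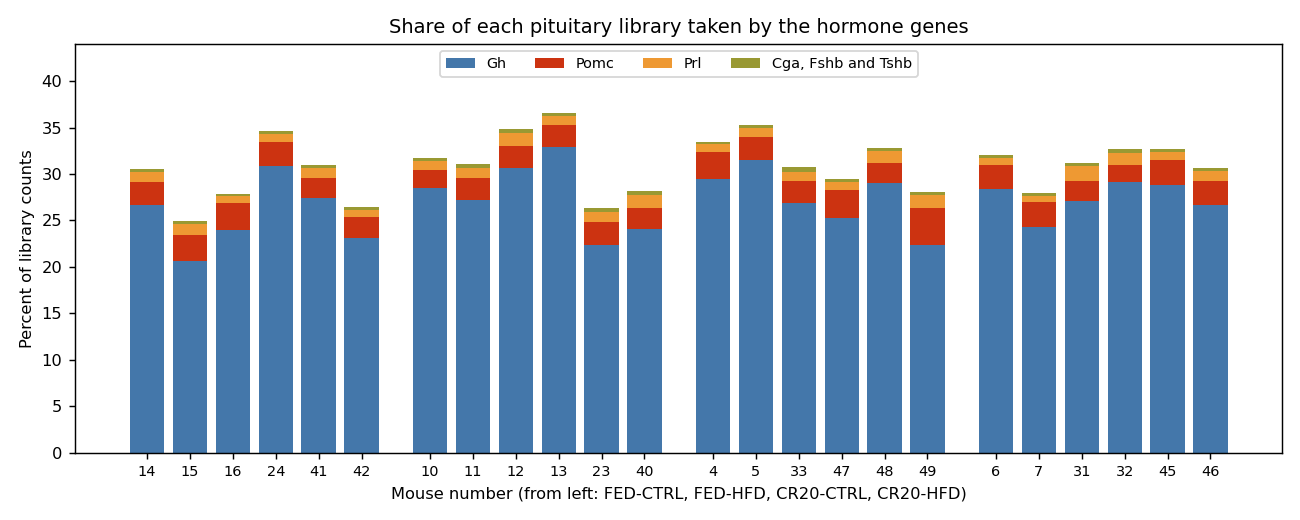
Percent of all counts of each pituitary library taken by Gh, Pomc, Prl and the sum of Cga, Fshb and Tshb, with 1 stacked bar for each of 24 mice, numbered as in the labels and ordered by group. Gh fills most of every bar, and the summed share runs from 25.0% to 36.6% with the 4 groups overlapping.

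The summed share overlapped between groups, with medians of 29.2% in FED-CTRL, 31.4% in FED-HFD, 31.7% in CR20-CTRL and 31.6% in CR20-HFD mice. When counts were divided by the length of the annotated exons, the order of levels was Gh, Pomc, Prl, Cga, Fshb and Tshb in 24 of 24 libraries. On this per-length scale, the Gh level was a median of 16.6 times that of Pomc in the same library, and the closest neighbours in the order were Pomc and Prl, whose ratio ran from 1.40 to 4.08 with a median of 2.55. The last step depended on which transcript was assumed. With the length of the canonical transcript, a choice made after seeing the data, Fshb was above Tshb in 22 of 24 libraries and by a median of 1.28 times, against 10.4 times with all annotated exons.

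The labelled tissue carried the following receptors and regulators of the hormone cells in every library. The growth hormone-releasing hormone receptor Ghrhr had 2733 to 5996 counts, the gonadotropin-releasing hormone receptor Gnrhr 938 to 2362 and the corticotrope factor Tbx19 1757 to 3000. Lhb, the luteinising hormone beta subunit, had few counts. It is listed under 2 identifiers, with 2 to 17 counts in the first and 0 in every library in the second. It was not read as a level. The paper reports pituitary Lh transcript by qRT-PCR after a longer diet course, and the cause of the low counts here was not tested. Melanotrope markers (Pax7, Pcsk2, Oacyl) and posterior-lobe markers (pituicyte genes at a summed 11.8 to 28.4 library-scaled counts, CPM) were also present, so Pomc here sums corticotropes and melanotropes. In bulk tissue, fewer cells of a type and less RNA per cell cannot be told apart.

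None of the 6 hormone genes passed the test in any comparison. Differences were fitted with edgeR's quasi-likelihood test over all 16657 genes and called at a Benjamini-Hochberg adjusted p under 0.05. It called 0 of 6 hormone genes in each of 7 contrasts: the maternal effect on either diet, the diet effect in either maternal group, the interaction, and both effects averaged over the other factor. The share of all genes called was 0% in 6 of these and 0.024% for HFD against CTRL over both maternal groups. Few genes of any kind were thus called, so the count of 0 does not set the hormone genes apart. At an unadjusted p under 0.05, 1 hormone gene stood in CR20-CTRL against FED-CTRL (17.3% of all genes), 1 in FED-HFD against FED-CTRL (9.64%), 1 in the interaction (11%) and 0 in the rest, where the shares of all genes were 6.77% (CR20-HFD against FED-HFD), 7.28% (CR20-HFD against CR20-CTRL), 13.2% (maternal effect over both diets) and 6.23% (diet effect over both maternal groups). Other tests were run here over the same genes, with no limit on fold change. Of these, limma voom with quality weights called 284 genes (1.7%) in CR20-CTRL against FED-CTRL, and DESeq2 called 371 (2.23%). Neither of these, nor voom without weights, called a hormone gene in any contrast. The paper, which names voom with quality weights as its method, reports no significant difference in pituitary between any of the groups. Its definition of a differentially expressed gene also sets a fold limit. The cause of the difference from the refit made here was not tested. The groups separated without overlap for 0 of 6 hormone genes in each of the 4 comparisons of 2 groups. The share of all genes that did so was 0.738% in CR20-CTRL against FED-CTRL, 0.27% in CR20-HFD against FED-HFD, 0.384% in FED-HFD against FED-CTRL and 0.408% in CR20-HFD against CR20-CTRL. In these comparisons, the 95% intervals of the fold differences of the 6 genes all lay between 0.703 and 1.52.

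**Figure D2:**
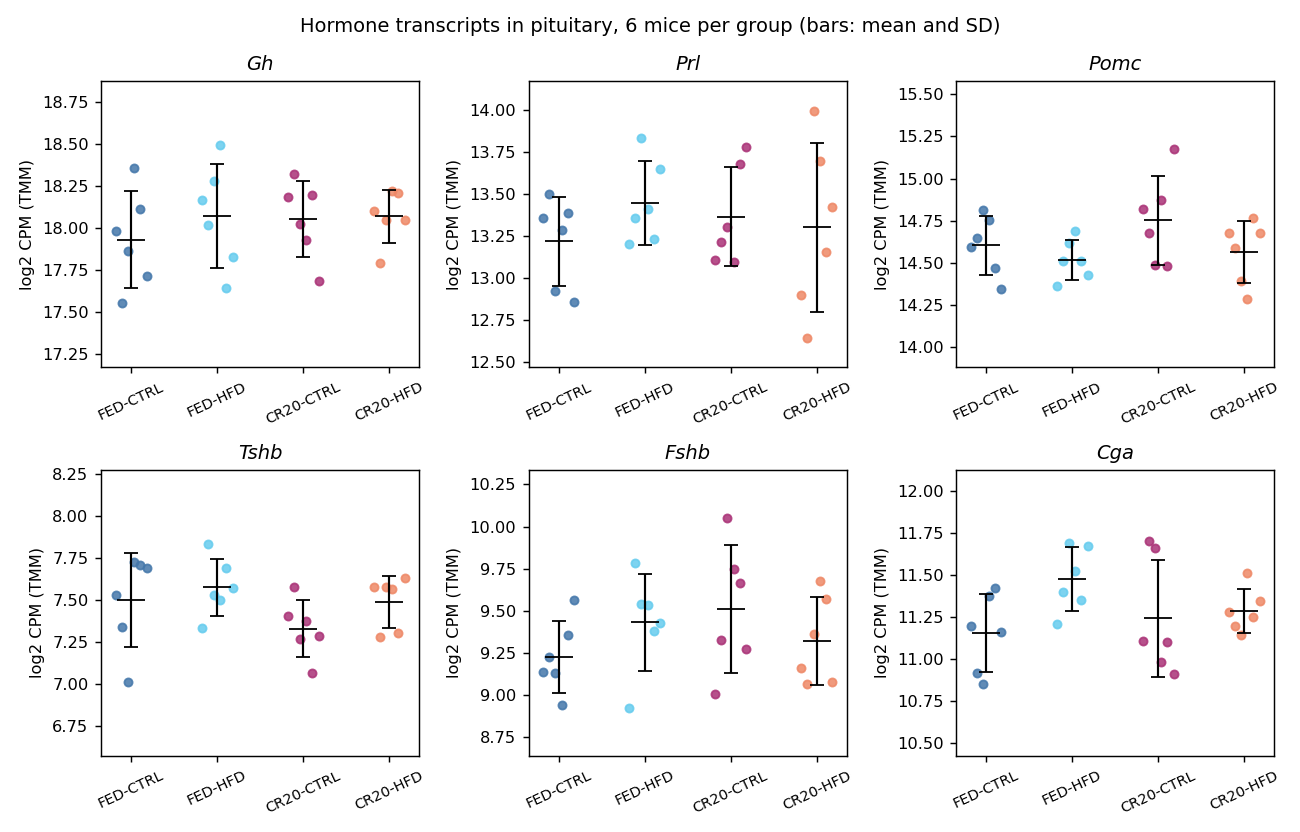
Level of each hormone gene in pituitary (log2 CPM after TMM scaling) by group, with 1 point per mouse, 6 mice per group, and bars for the mean and SD; each panel spans the same range of log2 units. The points of the 4 groups overlap for every gene, with the widest spread for Prl in CR20-HFD mice.

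Gh and Prl, the products of somatotropes and lactotropes, had wide overlap between groups. Gh was at 17.55 (lowest), 17.92 (median) and 18.36 (highest) log2 CPM in FED-CTRL mice, and at 17.64, 18.09 and 18.49 in FED-HFD mice. In CR20-CTRL mice Gh was at 17.69, 18.10 and 18.32 log2 CPM, and in CR20-HFD mice at 17.79, 18.08 and 18.22. All 4 groups overlapped, and a single FED-HFD mouse (13) stood above all FED-CTRL mice. The log2 fold change of Gh was 0.11 for CR20-CTRL against FED-CTRL (95% interval -0.14 to 0.37, edgeR adjusted p = 0.680) and -0.023 for CR20-HFD against FED-HFD (-0.28 to 0.23, adjusted p = 0.991). For diet, it was 0.14 in FED offspring (-0.11 to 0.40, adjusted p = 0.768) and 0.0066 in CR20 offspring (-0.25 to 0.26, adjusted p = 0.991).

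Prl varied most among the 6 genes, with a biological coefficient of variation of 20.6% in the edgeR fit against a common value of 15.3% over all genes. It was at 12.86, 13.32 and 13.50 log2 CPM (lowest, median, highest) in FED-CTRL mice and at 13.20, 13.38 and 13.83 in FED-HFD mice. It was at 13.10, 13.26 and 13.78 log2 CPM in CR20-CTRL mice and at 12.65, 13.29 and 13.99 in CR20-HFD mice. The CR20-HFD group thus held both the lowest and the highest Prl level of all 24 mice, in mouse 7 and mouse 31. The largest difference in Prl between 2 groups was 0.23 on the log2 scale for FED-HFD against FED-CTRL (95% interval -0.12 to 0.57, edgeR adjusted p = 0.702), and the maternal difference over both diets was 0.031 (-0.21 to 0.27, adjusted p = 0.932).

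The highest Pomc levels were in CR20-CTRL mice. Pomc was at 14.34, 14.62 and 14.81 log2 CPM (lowest, median, highest) in FED-CTRL mice and at 14.36, 14.51 and 14.69 in FED-HFD mice. It was at 14.48, 14.75 and 15.18 log2 CPM in CR20-CTRL mice and at 14.28, 14.63 and 14.76 in CR20-HFD mice. In CR20-CTRL, 3 mice lay above every FED-CTRL mouse, and the highest was mouse 49, in which Pomc took 3.93% of the library while Gh, at 22.4%, was the lowest of its group. Mouse 49 also had the highest summed level of the melanotrope markers Pax7, Pcsk2 and Oacyl, 836 CPM, where the group medians ran from 439 to 536 CPM; the part of melanotropes in its Pomc level was not tested. The log2 fold change of Pomc for CR20-CTRL against FED-CTRL was 0.16 (95% interval -0.046 to 0.37, edgeR adjusted p = 0.421), and 0.052 without mouse 49. With the HFD, it was -0.20 in CR20 offspring (-0.41 to 0.0066, adjusted p = 0.704), or -0.093 without mouse 49, and -0.090 in FED offspring (-0.30 to 0.12, adjusted p = 0.828). Over both maternal groups the diet difference was -0.14 (-0.29 to 0.0012, unadjusted p = 0.0518, edgeR adjusted p = 0.789), and it was -0.089 without mouse 49 (unadjusted p = 0.186, adjusted p = 0.998).

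Cga gave the smallest unadjusted p of the hormone genes. The shared alpha subunit was at 10.85, 11.18 and 11.42 log2 CPM (lowest, median, highest) in FED-CTRL mice and at 11.21, 11.46 and 11.69 in FED-HFD mice. Here 3 FED-HFD mice lay above every FED-CTRL mouse, and the other FED-HFD mice lay within the FED-CTRL range. The log2 fold change was 0.31 (SE 0.12, 95% interval 0.067 to 0.56, unadjusted p = 0.0147), and its edgeR adjusted p of 0.382 did not pass. FED-HFD mouse 10 carried adipocyte markers at a summed 44.6 CPM, against at most 1.06 CPM in every other mouse (0 of the 4 adipocyte genes passed the filter on low counts), and FED-HFD mouse 13 had the highest summed red blood cell markers, 12431 CPM. Without mouse 10 the Cga difference was 0.36 and without mouse 13 it was 0.31. Without FED-CTRL mouse 16, which had the lowest Cga level in this comparison, it was 0.26 (unadjusted p = 0.0437, edgeR adjusted p = 0.660). In CR20 offspring, Cga was at 10.91, 11.10 and 11.70 log2 CPM on the CTRL diet and at 11.14, 11.27 and 11.51 on the HFD, and the diet difference was 0.014 (-0.23 to 0.26, edgeR adjusted p = 0.986). The interaction, which tests whether the response to diet differed by maternal group, was -0.30 on the log2 scale (-0.65 to 0.050, adjusted p = 0.526).

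Tshb was lower in mean in CR20 than in FED offspring on each diet, by less than the spread between mice. It was at 7.02, 7.61 and 7.72 log2 CPM (lowest, median, highest) in FED-CTRL mice and at 7.07, 7.33 and 7.58 in CR20-CTRL mice. It was at 7.34, 7.55 and 7.83 log2 CPM in FED-HFD mice and at 7.28, 7.57 and 7.63 in CR20-HFD mice. The CR20-CTRL values all lay inside the FED-CTRL range, whose lowest mouse (16) stood below all others of the study. The log2 fold change for CR20 against FED was -0.18 on the CTRL diet (95% interval -0.40 to 0.026, edgeR adjusted p = 0.355) and -0.087 on the HFD (-0.30 to 0.12, adjusted p = 0.930). Averaged over diets, with 12 mice on each side, it was -0.14 (-0.28 to 0.013, unadjusted p = 0.0719, edgeR adjusted p = 0.421), which leaves room for a Tshb level of 0.821 to 1.01 times that of FED offspring. It was -0.19 without FED-CTRL mouse 16 (unadjusted p = 0.00718, adjusted p = 0.370 in the same edgeR test). With each of the 24 mice left out in turn, the averaged difference ran from -0.19 to -0.11.

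Fshb had the widest difference between maternal groups on the CTRL diet. It was at 8.94, 9.18 and 9.56 log2 CPM (lowest, median, highest) in FED-CTRL mice and at 9.01, 9.49 and 10.05 in CR20-CTRL mice. In CR20-CTRL, 3 mice lay above every FED-CTRL mouse and the other 3 lay within the FED-CTRL range. The log2 fold change was 0.31 (SE 0.14, 95% interval 0.020 to 0.61, unadjusted p = 0.0370, edgeR adjusted p = 0.257), and it was 0.17 without CR20-CTRL mouse 33, which had the highest level. With each of the 12 mice left out in turn, this difference ran from 0.17 to 0.40. On the HFD, Fshb was at 8.92, 9.48 and 9.78 log2 CPM in FED mice and at 9.07, 9.26 and 9.68 in CR20 mice, a difference of -0.11 (-0.41 to 0.18, adjusted p = 0.934). The maternal difference was thus of opposite sign on the 2 diets, and the interaction was -0.43 (-0.84 to -0.013, unadjusted p = 0.0438, edgeR adjusted p = 0.446), or -0.30 without mouse 33. With each of the 24 mice left out in turn, the interaction ran from -0.52 to -0.30.

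**Figure D3:**
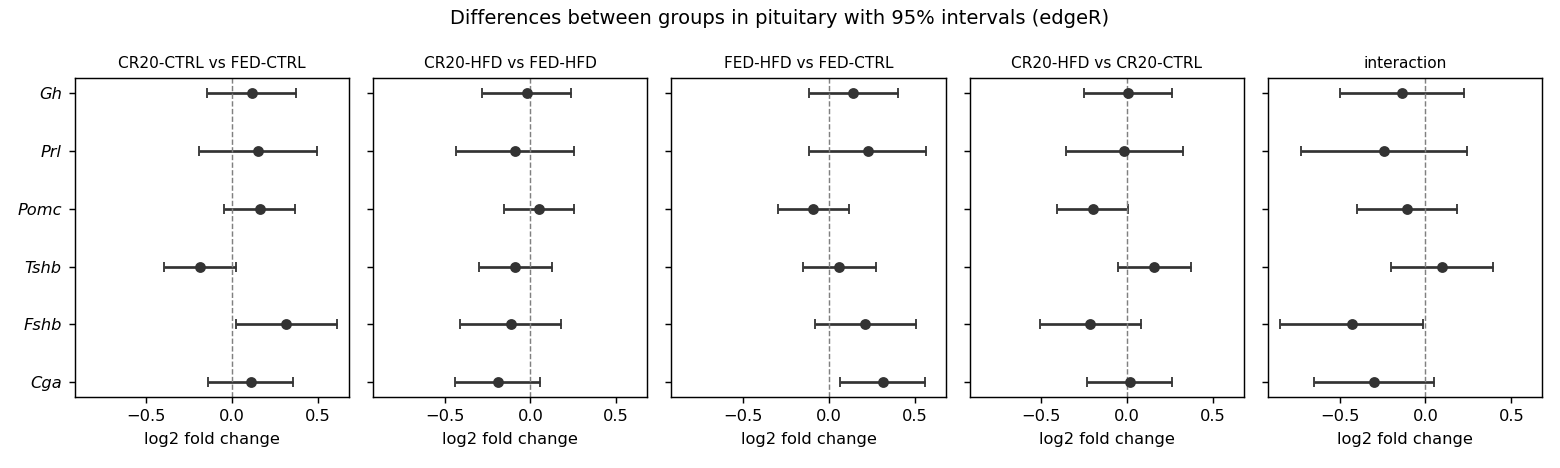
Log2 fold change of each hormone gene in pituitary with its 95% interval from the edgeR fit, for 4 comparisons of 2 groups and the interaction, 6 mice per group. The intervals that leave out 0 are those of Fshb in CR20-CTRL against FED-CTRL, Cga in FED-HFD against FED-CTRL and Fshb in the interaction, and none of these passed after adjustment over all genes.

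Because Gh takes so large a share of each library, hormone genes were also set against each other within a library, where scaling between libraries has no part. Over 5 ratios and 4 comparisons, 20 exact two-sided permutation tests over the 924 divisions of 12 mice gave no adjusted p under 0.664, and the groups overlapped in all 20. The smallest p was that of Tshb over Cga, the thyrotropin beta subunit over the alpha subunit that the gonadotropins share. Cga in bulk pituitary sums thyrotropes and gonadotropes, so the ratio is not that of thyrotropin alone. Its mean on the log2 scale was -3.90 ± 0.24 (SD, n = 6) in FED-HFD and -3.65 ± 0.12 (SD, n = 6) in FED-CTRL mice (exact permutation p = 0.0606, adjusted p = 0.664). In CR20-CTRL mice this ratio was -3.91 ± 0.32 (SD, n = 6), which differed from FED-CTRL by -0.26 (exact permutation p = 0.0996, adjusted p = 0.664). Fshb over Tshb averaged 2.18 ± 0.48 (SD, n = 6) among CR20-CTRL mice, beside 1.72 ± 0.31 (SD, n = 6) among FED-CTRL mice (exact permutation p = 0.0844, adjusted p = 0.664). Prl over Gh and Pomc over Gh differed by at most 0.22 between groups in size, with exact permutation p of 0.197 or above, and both were highest in CR20-CTRL mouse 49.

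**Figure D4:**
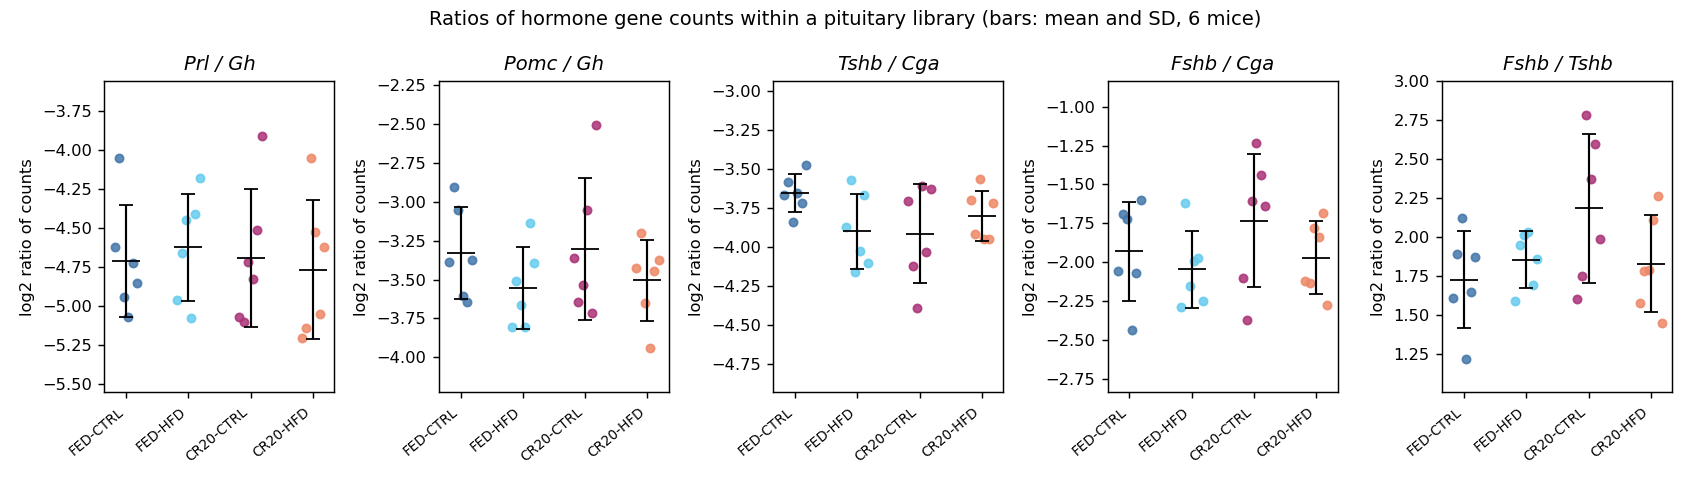
Log2 ratio of the counts of a pair of hormone genes in the same pituitary library, by group, with 1 point per mouse, 6 mice per group, and bars for the mean and SD. The groups overlap in every panel, and the highest Pomc to Gh and Prl to Gh ratios belong to CR20-CTRL mouse 49.

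No pair of hormone genes varied closely together among mice. With the group means removed, Pearson's r over the 24 libraries ran from -0.40 for Pomc and Fshb to 0.49 for Gh and Cga and for Tshb and Cga, values that share the scaling of each library. The genes most like each hormone gene on this measure, among all genes tested, are given as a description with no test, since they were picked as the highest of many. For Fshb these were Il23a (r = 0.87, Spearman's rho = 0.87), the gonadotrope receptor Gnrhr (r = 0.83, rho = 0.82) and Rab27a (r = 0.78, rho = 0.78). For Tshb they were Mr1 (r = 0.78, rho = 0.76), Epm2a (r = 0.77, rho = 0.71) and Tars3 (r = 0.75, rho = 0.70). Cga was most like Gm8098 (r = 0.78, rho = 0.79), Etfa (r = 0.74, rho = 0.75) and Mlkl (r = 0.74, rho = 0.76). Pomc was most like the low-level Mir8116 (r = 0.84, rho = 0.88), Aasdh (r = 0.70, rho = 0.65) and Fgfr4 (r = 0.65, rho = 0.64). Gh was most like Lhfpl5 (r = 0.76, rho = 0.70), Mettl26 (r = 0.75, rho = 0.77) and Plpp2 (r = 0.75, rho = 0.72), and Prl most like Mrpl10 (r = 0.74, rho = 0.72), Tmco3 (r = 0.73, rho = 0.75) and Usp33 (r = 0.72, rho = 0.70).

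Other genes of the hormone cells were read in the same fit: receptors, transcription factors, the prohormone-processing enzymes Pcsk1, Pcsk2 and Cpe, the activin and inhibin subunits Inhba and Inhbb, the activin-binding Fst, the deiodinase Dio2, and Lhb, which was tested despite its 2 to 17 counts. Of 36 listed genes 35 were tested (Fst did not pass the filter on low counts), and edgeR called 0 of them in any of the 7 contrasts. At an unadjusted p under 0.05 there were 12 of 35 in CR20-CTRL against FED-CTRL (17.3% of all genes), 5 in CR20-HFD against FED-HFD (6.77%), 6 in FED-HFD against FED-CTRL (9.64%) and 4 in CR20-HFD against CR20-CTRL (7.28%). There were 7 in the interaction (11%), 9 for the maternal effect over both diets (13.2%) and 2 for the diet effect over both maternal groups (6.23%). The median log2 fold change of the list was -0.046 in CR20-CTRL against FED-CTRL, beside 0.0063 over all genes. The listed gene with the smallest p there was Trhr, the thyrotropin-releasing hormone receptor of thyrotropes, at 0.80 (SE 0.20, edgeR adjusted p = 0.0725). The Tshb difference in the same comparison was -0.18. In FED-HFD against FED-CTRL it was the thyrotrope and gonadotrope factor Gata2, at -0.39 (SE 0.11, edgeR adjusted p = 0.207). Nr5a1, a nuclear receptor of gonadotropes, had the smallest p in the comparison of CR20-HFD with FED-HFD, at 0.27 (SE 0.080, edgeR adjusted p = 0.491). It also led CR20-HFD against CR20-CTRL at 0.35 (adjusted p = 0.499) and the interaction at 0.54 (adjusted p = 0.314). Averaged over diets Trhr led at 0.46 (edgeR adjusted p = 0.226), and averaged over maternal groups the prolactin receptor Prlr led at -0.18 (adjusted p = 0.713).

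In eWAT and liver, which do not make these hormones in quantity, the 2 hormone genes most abundant in pituitary were nevertheless counted in every library. Total counts ran from 11589675 to 22364963 in eWAT and from 9842813 to 19928212 in liver. Gh had 12 to 382 counts in eWAT (median 54) and 10 to 259 in liver (median 81.5), and its median CPM there was 0.00119% and 0.00172% of that in pituitary. Pomc had 7 to 57 counts in eWAT (median 25.5) and 2 to 34 in liver (median 9). Prl had at most 9 counts, Tshb at most 6, Cga at most 5 and Fshb at most 3 in any library of either tissue, near the floor of 3 counts per library, or 0.134 to 0.305 CPM, that a count of 0 allows.

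**Figure D5:**
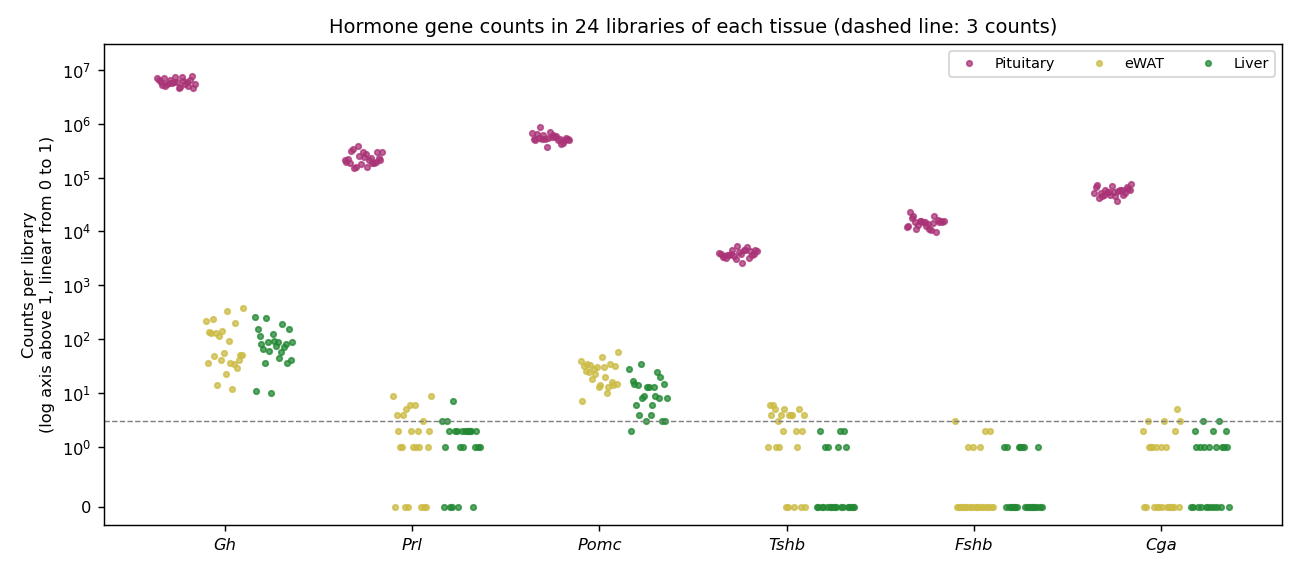
Counts of each hormone gene in 24 libraries each of pituitary, eWAT and liver, on an axis that is logarithmic above 1 and linear from 0 to 1; the dashed line marks 3 counts. Gh and Pomc appear in every eWAT and liver library at up to 382 and 57 counts, and the other genes lie between 0 and 9 counts there.

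The ratio of each hormone gene to Gh in eWAT and liver was set beside that in pituitary. Summed over 24 libraries, Pomc had 93.6 counts per 1000 Gh counts in pituitary. It had 234 in eWAT (95% interval 214 to 256) and 123 in liver (109 to 140). These exact intervals cover counting error of the summed counts only and leave out the spread between libraries. They take each read as independent, and the methods name no molecular identifiers. Within libraries, Pomc per Gh count exceeded the highest pituitary value in 20 of 24 eWAT and 5 of 24 liver libraries. Tshb differed in the same way, with 0.665 counts per 1000 Gh counts in pituitary, 24.6 in eWAT (18.9 to 31.6) and 4.41 in liver (2.11 to 8.12). Tspan2, which overlaps Tshb on the other strand, had 59 to 310 counts in eWAT and 2 to 15 in liver, and its part in the Tshb counts was not tested. The intervals of Cga held the pituitary ratio, with 9.38 in pituitary, 9.23 in eWAT (5.91 to 13.8) and 8.81 in liver (5.37 to 13.6), and so did those of Fshb, with 2.49, 3.85 (1.84 to 7.09) and 3.08 (1.24 to 6.36). Prl was below it, with 39.3 in pituitary, 23.1 in eWAT (17.6 to 29.8) and 17.2 in liver (12.2 to 23.6).

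No difference between groups was called for the hormone genes in eWAT or liver. Gh and Pomc passed the filter on low counts in both tissues, and edgeR called 0 of these 2 genes in any of the 7 contrasts of either tissue, also at an unadjusted p under 0.05. In eWAT the share of all genes called was 0% in CR20-CTRL against FED-CTRL, 14.9% in CR20-HFD against FED-HFD, 10.5% in FED-HFD against FED-CTRL, 0% in CR20-HFD against CR20-CTRL, 2.29% in the interaction, 6.68% for the averaged maternal effect and 0.251% for the averaged diet effect. In liver, in the same order, it was 0%, 0%, 0.109%, 0.515%, 0%, 0% and 1.74%. The shares at an unadjusted p under 0.05, again in this order, were 7.39%, 29.8%, 25.7%, 6.03%, 18.2%, 24.3% and 17.1% in eWAT and 2.17%, 3.58%, 6.66%, 9.57%, 1.76%, 4% and 13.2% in liver. The largest difference of Gh between 2 groups in eWAT was 0.85 for FED-HFD against FED-CTRL (95% interval -0.66 to 2.36, edgeR adjusted p = 0.497), an interval wide enough to hold large changes in either direction.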

How the data were processed

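RNA from pituitary, eWAT and liver of 24 mice was sequenced as stranded total RNA libraries per the labels, although the methods also name a messenger RNA kit. The authors trimmed reads with Trimmomatic, aligned them to GRCm39 with STAR and counted reads per gene with Subread featureCounts; tool versions, the strand setting and the handling of multi-mapping reads are not given in the sources used here. The deposited values are raw counts, which were used as deposited in all 72 libraries, and 0 pairs of libraries were identical. Of 55416 gene identifiers, 54749 matched GENCODE M39, from which symbols, coordinates and exon lengths were taken.

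Counts of each tissue were filtered with filterByExpr, scaled by TMM and fitted with edgeR 4.0.16 (glmQLFit, glmQLFTest; R 4.3.3) with a mean for each of 4 groups. Benjamini-Hochberg adjustment ran over 16657 genes in pituitary, 15964 in eWAT and 13787 in liver. Levels in log2 CPM used a prior count of 2. Ratios within a library were compared by exact two-sided permutation tests (numpy 2.4.6), whose smallest possible p is 0.00216. Spearman's rho and the exact intervals of summed counts used scipy 1.17.1. Alternatives used limma 3.58.1, DESeq2 1.42.0, other scaling, other filters, a covariate for the range of animal numbers, which is not a stated batch, and the removal of each mouse in turn. The fits were tested on simulated data. Named genes were the 6 hormone genes, Lhb, any regulator called or with the smallest p in a comparison, and for each hormone gene the 3 genes with the highest Pearson's r. The members and lists were chosen with earlier results of these data known. Markers of other cell types were read as summed CPM, and no tested marker was called in any contrast (the adipocyte genes did not pass the filter): stem and folliculostellate, pituicyte, neurohypophysial axon, melanotrope, endothelial, red blood cell, macrophage, fibroblast and pericyte, adipocyte and hepatocyte lists.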

Additional observations from a re-analysis of the deposited data

Results flagged for a closer look

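Pomc in eWAT of CR20-CTRL mouse 5 stood far from the other mice of its group, at -0.73 where the other 5 ran from 0.38 to 0.94, as log2 of CPM without TMM scaling or a prior count. On the TMM-scaled log2 CPM with a prior count of 2 used elsewhere, Pomc was at -0.70 in this mouse and at 0.48 to 1.03 in the other 5. This was the single such value among 60 groups of 6 mice examined (6 genes in pituitary and 2 each in eWAT and liver, by group, and the 5 ratios); chance alone gives about 1 in 20. Its cause was not tested.

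Gh and Pomc were counted in eWAT and liver, tissues outside the main measurement, in every library and mostly above the 3 counts that a count of 0 allows. The median was 54 counts of Gh and 25.5 of Pomc in eWAT, and 81.5 of Gh and 9 of Pomc in liver, where 1 library had under 3 counts of Pomc. Their source was not tested.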

How the results depend on the processing

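The count of 0 of 6 hormone genes called was the same in each of 7 contrasts under 10 alternatives to the edgeR test (9 for the interaction and the averaged effects) and with each mouse of the groups compared left out in turn. Under the alternatives, the share of all genes called was at most 2.23% (DESeq2, CR20-CTRL against FED-CTRL). The count of 0 thus does not set the hormone genes apart. The share with a mouse left out is not given here. The smallest adjusted p of a hormone gene was 0.154 under the alternatives (Fshb, CR20-CTRL against FED-CTRL, limma voom with quality weights) and 0.113 with a mouse left out (Fshb, same comparison, edgeR). Of 402 log2 fold changes under the alternatives, 387 had the same direction and 15 were reversed, all within 0.0556 of 0 in size. For Fshb in HFD against CTRL over both maternal groups, -0.00069 in the edgeR fit, they were 0.0188 with voom and quality weights, 0.00339 with voom alone, 0.00808 with DESeq2, 0.00802 with its size factors in edgeR, 0.00957 with scaling without the 6 hormone genes, 0.00783 with no filter, 0.00103 with a filter of over 1 CPM and 0.0177 with the animal-number covariate. Prl for CR20 against FED over both diets was -0.0170 with quality weights and -0.0556 with the covariate. In CR20-HFD against CR20-CTRL, Gh was -8.75e-05 with library totals and -0.00444 with the covariate, Prl was 0.000188 with scaling without the hormone genes, and Cga was -0.0052 with the covariate. In CR20-HFD against FED-HFD, Gh was 0.00344 with the covariate. The cause of these reversals was not tested.

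With a mouse left out, 40 of 720 values were reversed. In CR20-HFD against CR20-CTRL the ranges were -0.0497 to 0.0823 for Gh, -0.18 to 0.0951 for Prl and -0.0411 to 0.14 for Cga; in CR20-HFD against FED-HFD they were -0.0985 to 0.0686 for Gh and -0.25 to 0.0204 for Prl. Cga in CR20-CTRL against FED-CTRL ran from -0.0144 to 0.16, Tshb in FED-HFD against FED-CTRL from -0.0146 to 0.11, Prl for CR20 against FED over both diets from -0.0513 to 0.0857, and Fshb in HFD against CTRL over both maternal groups from -0.0445 to 0.0705. Of 240 log2 ratios, 19 were reversed: Fshb over Tshb (-0.11 to 0.0507) and Pomc over Gh (-0.0137 to 0.13) in CR20-HFD against FED-HFD, Pomc over Gh (-0.13 to 0.11) and Prl over Gh (-0.14 to 0.15) in CR20-CTRL against FED-CTRL, and Prl over Gh in CR20-HFD against CR20-CTRL (-0.22 to 0.0799) and in FED-HFD against FED-CTRL (-0.00218 to 0.22).

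The groups compared within a tissue hold different mice and share no animal number. By the methods, the pups of a dam were assigned to either diet, and FED and CR20 dams were paired for feeding. The labels give neither the dam nor the pair, so no paired analysis was possible. Adding 1 to each count reversed none of the 20 log2 ratios and left 0 called, and the median summed share was 31.0% also over the genes that passed the filter. With a floor of 10 counts in place of 3, the Pomc median in liver was no longer above the floor. Depth did not limit the pituitary values; in eWAT and liver Prl, Tshb, Fshb and Cga were too low to compare between groups.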

Other observations

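Other cell types were read in pituitary as the sum of their markers over the 24 libraries. Endothelial markers ran from 345 to 459 CPM, macrophage markers from 121 to 213, fibroblast and pericyte markers from 131 to 222, and stem and folliculostellate markers from 126 to 185. Red blood cell markers ran from 806 to 12431 CPM, the neurohypophysial hormones Avp and Oxt from 7.99 to 24.4 and hepatocyte markers from 0.709 to 8.40. EdgeR called 0 of the tested markers of these lists in any of the 7 contrasts. At an unadjusted p under 0.05 there were 0 to 2 markers of a list in a contrast. The macrophage list had 2 of 4 in FED-HFD against FED-CTRL (9.64% of all genes), CR20-HFD against CR20-CTRL (7.28%) and the averaged diet effect (6.23%). The fibroblast and pericyte list had 2 of 4 in CR20-HFD against FED-HFD (6.77%), FED-HFD against FED-CTRL (9.64%) and the interaction (11%). Tested red blood cell markers had 2 of 4 in CR20-HFD against FED-HFD, and tested hepatocyte markers 2 of 3 in CR20-HFD against CR20-CTRL. For the maternal effect over both diets there were 2 of 3 melanotrope, 2 of 4 endothelial and 2 of 4 tested red blood cell markers. The stem and folliculostellate list and the fibroblast and pericyte list each had 1 of 4, and the other tested lists had 0, beside 13.2% of all genes.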
